A study of Mus musculus with 6 samples.

Results

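The genes described here encode carriers of sugars, nucleotide sugars, nucleosides, vitamins, organic ions and small acids. They were chosen by symbol, as every gene on the array whose name begins with Slc2a, Slc5a, Slc10a, Slc13a, Slc15a, Slc16a, Slc17a, Slc19a, Slc22a, Slc23a, Slc27a, Slc28a, Slc29a, Slc35a, Slc37a, Slc45a, Slc46a or Slc47a followed by a digit, or with Slco followed by a digit. The prostaglandin carrier Slco2a1 was left out by the rule. This gave 124 of the 16593 genes named on the array, measured by 172 of its 25697 probes. The cells were GIF-14, an immortalized epithelial line established from the stomachs of fetal mice of the genotype Runx3-/-;p53-/-, so both groups lack both genes. Pre-EMT GIF-14 cells, the epithelial fraction of the line, were treated with TGF-β1 at 2.5 ng/ml for 24 h or left untreated. RNA was taken from 3 cultures of each group, described in the methods as biological triplicates. Each RNA was hybridized to an Illumina MouseRef BeadChip, which reads each probe from many beads that carry it. Both groups come from 1 cell line at 1 dose and 1 time point. The p-values set each change against the spread between these cultures and their arrays.

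Solute carriers are membrane proteins that let a cell take up, export or move between its compartments molecules that do not cross lipid bilayers. Some let the substrate run down its own gradient, as the hexose carriers of the Slc2 family do, and others couple it to sodium or protons, as the Slc5 and Slc46 families do. Carriers of the Golgi membrane bring nucleotide sugars to glycosyltransferases, and those of the lysosome return sugars, nucleosides and sialic acid to the cytosol. In the digestive tract the Slc22 and Slco families are known for the passage of carnitine, bile acids, hormones and drugs across epithelia.

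Signals were quantile-normalized and are given as log2 values. A probe was called detected where its detection p, which compares it with negative control beads, was under 0.05. Genes with a probe detected on all 3 untreated or all 3 TGF-β1 arrays were tested, each through its brightest such probe. Of the 124 carrier genes, 40 were tested, 14 were detected on some arrays without meeting this rule and 70 were detected on no array. The comparison was fitted with limma across all 7725 genes tested, and a gene was called higher or lower at an adjusted p under 0.05. The share of genes called was 35.7% over all genes tested, with 18.4% lower and 17.3% higher. Between 44.3% and 45.9% of the probes were detected on each array. Before normalization, mean signals ran from 435 to 519 in untreated cells and from 406 to 519 after TGF-β1, so the groups overlapped in brightness. Of 9 epithelial marker genes on the array, 8 were detected on all 6 arrays, among them Cdh1, Krt8, Krt18, Krt19 and Cldn7. Their summed level was 15.34 to 15.45 on the log2 scale in untreated cells and 15.43 to 15.61 after TGF-β1, but its members moved both ways. Krt19 (mean 13.64 to 12.04), Ocln (8.04 to 7.44) and Cldn3 (10.02 to 9.54) were lower after TGF-β1, Cldn4 (10.72 to 13.62) and Krt18 (12.69 to 13.16) were higher, and Cdh1, Krt8 and Cldn7 did not pass. The part of these changes in the carrier results was not tested. Of 9 gastric markers, Tff1 alone was detected on all 6 arrays, and the mucin genes Muc5ac and Muc6, pepsinogen C (Pgc) and the proton pump subunit Atp4b were detected on none. The summed gastric level was 10.21 to 10.24 in untreated cells and 9.59 to 9.67 after TGF-β1, and its part in the carrier results was not tested. No immune, endothelial, fibroblast, blood or neural marker was detected on all 6 arrays, and of the muscle markers Des was. The endothelial marker Pecam1 was detected on 3 untreated arrays and on no TGF-β1 array through 1 of its probes, and was lower (adjusted p = 0.00998). Among 6 fibroblast markers, 5 were detected on no array and Col1a1 was higher after TGF-β1, with a summed level of 8.83 to 9.02 against 9.16 to 9.29, whose part in the results was not tested.

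Among the 40 tested carrier genes, 13 were lower after TGF-β1, 6 were higher and 21 did not pass. The largest decrease was that of Slc5a6, the sodium-dependent carrier of biotin, pantothenate and lipoate, and the largest increase that of Slco3a1, an organic anion carrier. The 13 lower genes make 32.5% of those tested, beside 18.4% of all genes, and the 6 higher genes make 15% beside 17.3%. The median log2 fold change was -0.10 for the carriers and 0.03 over all genes tested. Setting the 4 genes that lack a detected signal in 1 group at their lower bounds could not move this median. Each of them stays on its own side of it. The 3 arrays of a group did not overlap with the other 3 in 24 of the 40 carrier genes, where the share over all genes tested was 48.2%. With 3 arrays a side, the smallest p of an exact permutation test (two-sided) is 0.1. Of the 106 tested genes of the other solute carrier families, 29 were lower and 11 were higher, or 37.7% called, with a median of -0.03, and the difference between both lists was not tested.

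**Figure D1:**
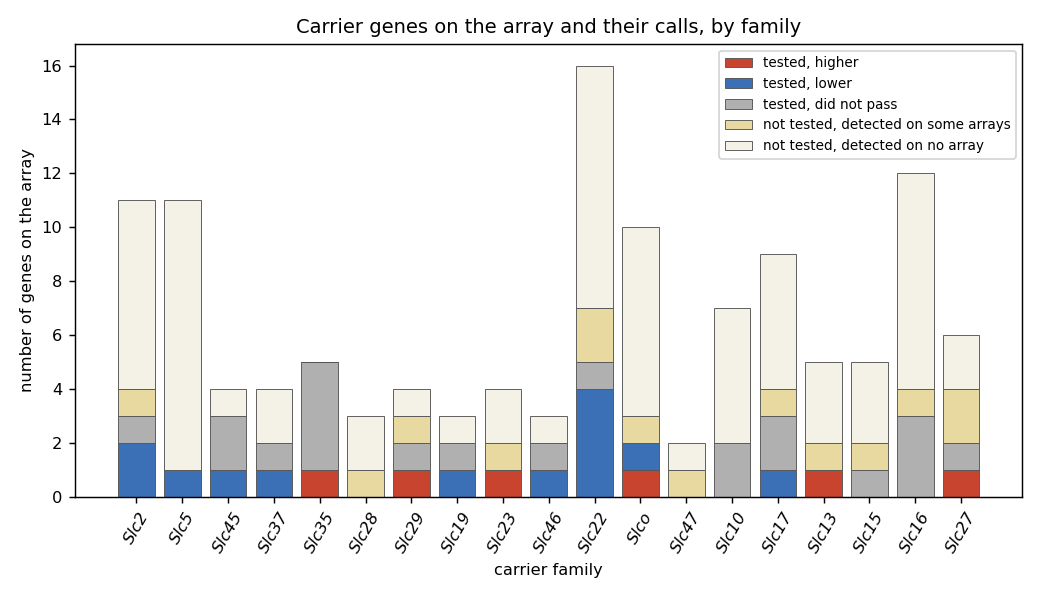
Number of carrier genes on the array (y axis) in each family (x axis), split into tested genes called higher or lower after TGF-β1, tested genes that did not pass, and genes not tested because their probes were detected on some arrays or on none. Of the 124 genes, 40 were tested, and 10 of the 11 Slc5 genes were detected on no array, while all 5 Slc35a genes were tested.

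Of the 19 calls, 8 were kept under each alternative setting in which the gene was tested, namely those of Slc5a6, Slc22a4, Slc17a4, Slc22a5, Slc22a23, Slc46a1, Slc35a2 and Slco3a1. The calls of Slc2a6, Slc22a18 and Slc13a4 ended only where a change of at least 1.5-fold was required in addition. The other 8 calls were also lost when 1 or more of the arrays was left out, and these losses are given beside each gene.

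**Figure D2:**
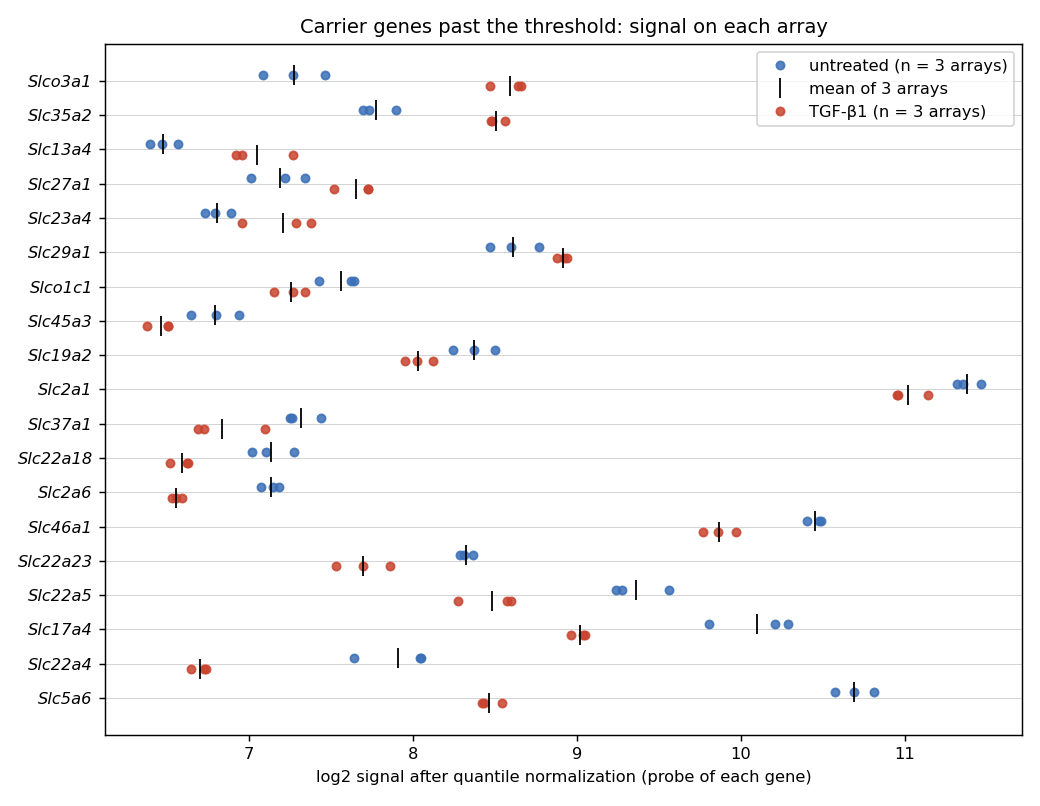
Log2 signal after quantile normalization (x axis) of the 19 carrier genes past the threshold (y axis, ordered by change), with a point for each of 3 untreated and 3 TGF-β1 arrays and a bar at the mean of each group. The groups do not overlap in any of the 19 genes, but these were chosen by their calls on the same arrays, so this adds no support. Over all genes tested, the share without overlap was 48.2%. The mean of Slc5a6 moved from 10.69 to 8.47. Signals of different genes come from different probes and have no common scale.

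Slc5a6 belongs to a family best known for sodium-coupled glucose uptake, but itself carries vitamins that become coenzymes of carboxylation and acyl transfer. Its log2 signal was 10.81, 10.69 and 10.57 in untreated cells and 8.54, 8.42 and 8.43 on the TGF-β1 arrays. Every TGF-β1 array lay over 2 log2 units below every untreated array. The decrease was 4.67-fold, or -2.22 in log2 units (SE 0.092, limma adjusted p = 7.54e-07). In the RefSeq annotation the gene overlaps at its start with Atraid, which runs the other way, and the start of Atraid lies in the window shown here. Atraid, named after its value was seen, had log2 signals of 12.28, 12.27 and 12.42 untreated and 11.23, 11.42 and 11.25 after TGF-β1 (log2 fold change -1.02, SE 0.091, adjusted p = 5.44e-05 from limma). Both of these overlapping genes were therefore lower. The window of 300 bases holds 250 before and 50 after the first listed of the annotated starts of Slc5a6. That start lies inside the annotated gene. The window is at chr5:31048513-31048812 on the minus strand of GRCm38.p6, taken from RefSeq. It is shown because it holds an annotated start of the most changed carrier gene and the start of its neighbour.
Slc5a6: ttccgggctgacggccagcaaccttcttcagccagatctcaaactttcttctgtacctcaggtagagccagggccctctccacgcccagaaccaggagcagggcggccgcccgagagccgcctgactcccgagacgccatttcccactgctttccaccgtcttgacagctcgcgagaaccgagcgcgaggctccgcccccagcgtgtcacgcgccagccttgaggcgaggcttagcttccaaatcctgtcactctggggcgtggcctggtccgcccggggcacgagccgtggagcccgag

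No other Slc5 gene could be tested. The 10 genes detected on no array include the sodium-glucose carriers Slc5a1 and Slc5a2, the myo-inositol carrier Slc5a3, the iodide carrier Slc5a5, the choline carrier Slc5a7 and the short-chain fatty acid carrier Slc5a8. In the Slc2 family of hexose carriers, 2 of 3 tested genes were lower. Slc2a1, which encodes GLUT1, the main glucose carrier of growing cells, had a log2 signal of 11.32, 11.46 and 11.36 in untreated cells and of 10.96, 11.14 and 10.95 after TGF-β1. The groups did not overlap, and the change was -0.36 (SE 0.091, adjusted p = 0.0149 from limma). This call was lost without untreated replicate 2 (adjusted p = 0.0655) or TGF-β1 replicate 1 (0.0559). Slc2a6, a hexose carrier of lysosomes, had signals of 7.15, 7.18 and 7.08 untreated and of 6.59, 6.55 and 6.53 after TGF-β1, where its probe was detected on no array. It was at least 1.40-fold lower, taking the dimmest detected probe of an array as its floor. Without this floor the change was -0.58 (limma adjusted p = 0.000633). Slc2a8, an intracellular hexose carrier, did not pass (log2 fold change -0.10, SE 0.088, adjusted p = 0.403). The probe of Slc2a10 was detected on 2 arrays of each group and was not tested. Slc2a2, Slc2a3, Slc2a4, Slc2a5, Slc2a9, Slc2a12 and Slc2a13 were detected on no array, so the genes for the liver, neuronal, insulin-responsive and fructose carriers gave no value here.

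The Slc45 family holds proton-coupled sugar carriers. Slc45a3 had log2 signals of 6.65, 6.80 and 6.94 in untreated cells and of 6.51, 6.38 and 6.51 after TGF-β1, where its probe was detected on no array. Its decrease was at least 1.10-fold with the same floor, and the change without it was -0.33 (limma adjusted p = 0.0309). The call was lost without untreated replicate 2 (0.0873) or 3 (0.0704), without TGF-β1 replicate 1 (0.0616), 2 (0.111) or 3 (0.0535), and with scaling to a common mean (0.0720). Slc45a2, known from melanosomes, did not pass (log2 fold change -0.23, SE 0.097, adjusted p = 0.0999), but passed without untreated replicate 3 (0.0231). Slc45a4 did not pass either (0.03, SE 0.10, adjusted p = 0.873).

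Carriers of sugar phosphates and nucleotide sugars were tested in 7 of 9 genes, of which 1 was lower and 1 was higher. Slc35a2, which brings UDP-galactose into the Golgi, was the higher gene. Its log2 signal was 7.69, 7.73 and 7.90 in untreated cells and 8.56, 8.48 and 8.48 after TGF-β1. The lowest TGF-β1 array was well above the highest untreated array, and the log2 fold change was 0.73 (SE 0.087, adjusted p = 0.000310 from limma). The related carriers of CMP-sialic acid (Slc35a1, -0.04, SE 0.19, adjusted p = 0.897) and UDP-N-acetylglucosamine (Slc35a3, -0.22, SE 0.10, adjusted p = 0.132) did not pass. Slc35a3 passed only with the mean raw signal of the array as a covariate (adjusted p = 0.0321). The brightest probe of Slc35a1 was at 9.47, 9.38 and 8.85 in untreated cells and at 8.89, 9.31 and 9.38 after TGF-β1. Untreated replicate 3 and TGF-β1 replicate 1, the arrays of lowest mean raw signal in their groups, were its lowest arrays. Slc35a4 (-0.05) and Slc35a5 (-0.09), members with less settled substrates, had adjusted p-values of 0.722 and 0.576. Slc37a1, a phosphate-linked glucose-6-phosphate exchanger, had signals of 7.26, 7.44 and 7.25 in untreated cells and 7.10, 6.69 and 6.72 after TGF-β1. The change was -0.48 (SE 0.12, adjusted p = 0.0167), and the call was lost without TGF-β1 replicate 2 (0.0714) or 3 (0.0531) as well as without untreated replicate 2 (0.0664). Slc37a3 did not pass (-0.07, adjusted p = 0.648), and Slc37a2 and Slc37a4 were detected on no array.

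All RefSeq promoter windows were searched on both strands for short motifs. These were a Smad half-site (CAGAC or GTCTG), the AP-1 site TGANTCA, and the E-box bound by Snail and Zeb proteins (CACCTG or CAGGTG). Windows of Slc5a6, Slc22a4, Slc22a5 and Slc35a2 were picked to be shown. Slco3a1 (log2 fold change 1.32) and Slc17a4 (-1.08) changed more than Slc22a5 and Slc35a2, but their windows are not shown. Matches of different motifs can share letters at their ends, and a match is a description of the sequence only. The Slc35a2 window lies at chrX:7883994-7884293 on the plus strand of GRCm38.p6 and is shown as that of a carrier gene that rose. It holds 1 E-box and 1 Smad half-site, printed in capitals.
Slc35a2: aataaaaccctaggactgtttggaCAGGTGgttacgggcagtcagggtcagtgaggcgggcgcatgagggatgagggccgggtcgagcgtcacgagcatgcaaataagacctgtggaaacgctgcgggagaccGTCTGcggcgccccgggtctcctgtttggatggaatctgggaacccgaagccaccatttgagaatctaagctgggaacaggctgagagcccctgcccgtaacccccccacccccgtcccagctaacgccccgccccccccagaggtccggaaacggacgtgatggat
The windows of Slc5a6, shown above, and of Slc22a4 and Slc22a5, shown further on, hold none of these letters and have no capitals. Over all 32851 RefSeq windows of this length, 49.6% hold the Smad half-site, 7.81% the AP-1 site and 20.2% the E-box. Of the 28 windows of 17 called carrier genes, 15 hold the Smad half-site, 0 the AP-1 site and 8 the E-box. Windows of 1 gene can overlap.

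**Figure D3:**
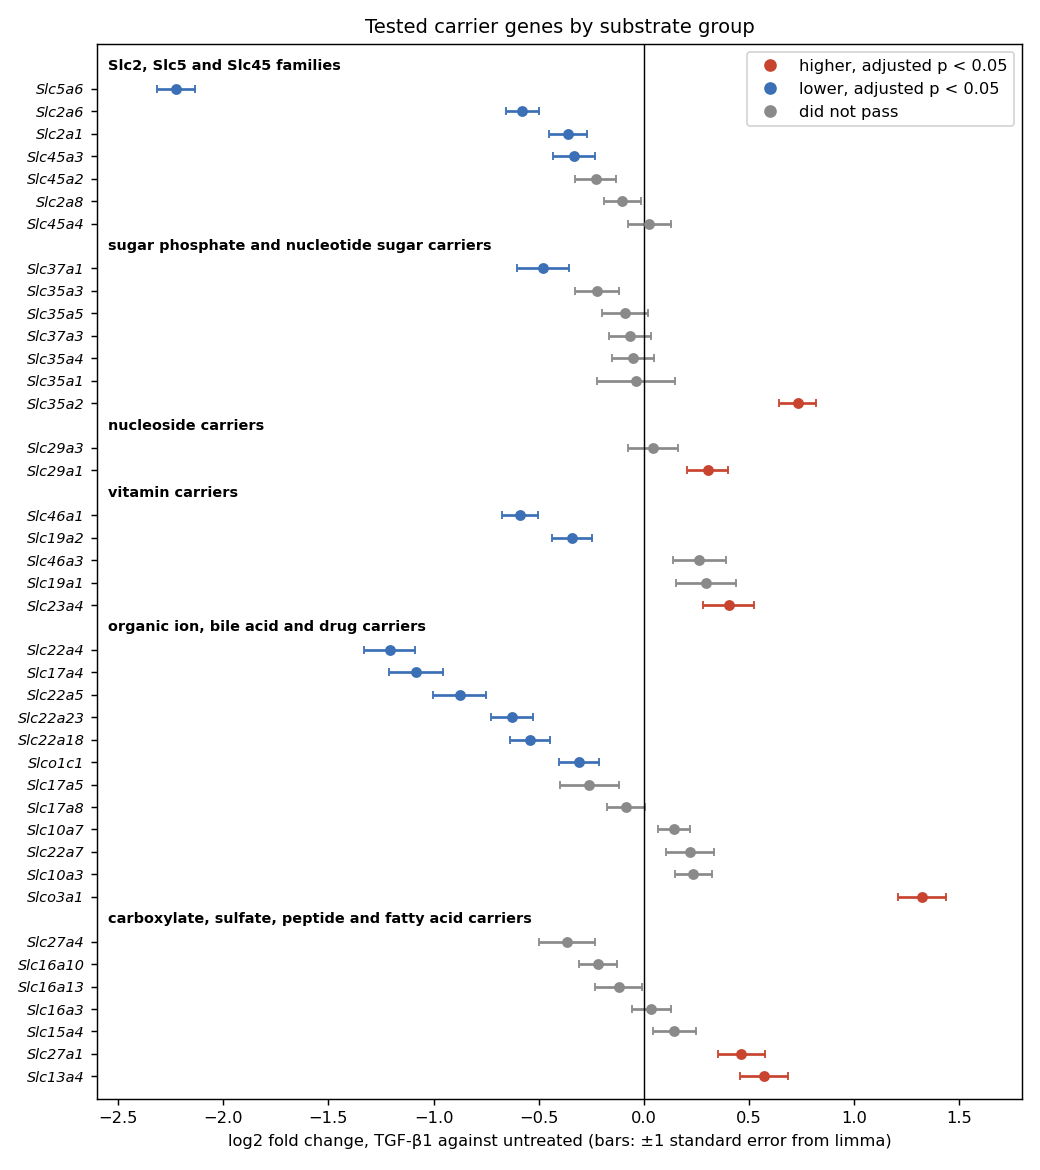
Log2 fold change after TGF-β1 (x axis, bars are 1 standard error from limma on each side) of the 40 tested carrier genes (y axis) by substrate group, with genes past the threshold in colour. The lowest value is that of Slc5a6 (-2.22) and the highest that of Slco3a1 (1.32), and 5 of the 7 carriers of carboxylates, sulfate, peptides and fatty acids did not pass.

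Nucleoside carriers were tested in 2 of 7 genes. Slc29a1 encodes the equilibrative nucleoside carrier of the plasma membrane. Its log2 signals were 8.47, 8.60 and 8.77 untreated and 8.88, 8.92 and 8.94 after TGF-β1. The groups did not overlap and the change was 0.30 (SE 0.096, adjusted p = 0.0389 from limma). The call was lost without untreated replicate 1 (0.139) or 2 (0.109), without TGF-β1 replicate 1 (0.0769), 2 (0.106) or 3 (0.0901), with neqc background correction (0.0516) and with scaling to a common mean (0.0535). Slc29a3, the lysosomal member, did not pass (0.04, SE 0.12, adjusted p = 0.816). Of the sodium-coupled nucleoside carriers, Slc28a1 and Slc28a2 were detected on no array and Slc28a3 on 1. Slc29a2 was detected on 1 array and Slc29a4 on none.

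The Slc19, Slc23 and Slc46 families, grouped here as vitamin carriers, were tested in 5 of 10 genes. Of these, 2 were lower, 1 was higher and 2 did not pass. The grouping is by family, so it includes Slc23a4 and leaves out the vitamin carrier Slc5a6. Slc46a1, the proton-coupled folate carrier of the small intestine, had log2 signals of 10.47, 10.40 and 10.49 in untreated cells and of 9.86, 9.97 and 9.77 after TGF-β1. All TGF-β1 arrays were lower, with a log2 difference of -0.59 (SE 0.086, limma adjusted p = 0.000953). Slc19a1, the reduced folate carrier, changed by 0.30 (SE 0.14, adjusted p = 0.147) and passed without untreated replicate 3 (adjusted p = 0.0186). Its untreated arrays ranged from 7.57 to 8.14 and overlapped with the TGF-β1 arrays at 8.04 to 8.26. The thiamine carrier Slc19a2 was at 8.50, 8.37 and 8.25 in untreated cells and at 8.12, 7.95 and 8.03 after TGF-β1 (change -0.34, SE 0.096, adjusted p = 0.0244). This call was lost without TGF-β1 replicate 2 (0.0920) or 3 (0.0573) as well as without untreated replicate 1 (0.0936) or 2 (0.0727). Slc46a3, a lysosomal member, changed by 0.26 (SE 0.13, adjusted p = 0.144) and passed without untreated replicate 3 (0.0134). Slc23a4, known in rat as a nucleobase carrier, had signals of 6.89, 6.79 and 6.73 untreated and of 7.29, 7.38 and 6.96 after TGF-β1. Its change was 0.40 (SE 0.12, adjusted p = 0.0302). The call was lost without TGF-β1 replicate 1 (0.0945) or 2 (0.112) as well as without untreated replicate 1 (0.0524), 2 (0.0855) or 3 (0.0624). The ascorbate carrier Slc23a2 was detected on 2 arrays of each group and was not tested, and Slc23a1, Slc23a3, Slc19a3 and Slc46a2 were detected on no array.

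In the group of organic ion, bile acid and drug carriers, 12 of 44 genes were tested, of which 6 were lower, 1 was higher and 5 did not pass. The Slc22 family gave 4 of the 6 lower genes from 5 tested. Slc22a4 and Slc22a5 encode carriers of ergothioneine and of carnitine, the compound that brings long-chain fatty acids into mitochondria. In untreated cells Slc22a4 was at 8.05, 8.04 and 7.64, and after TGF-β1 it was at 6.64, 6.74 and 6.73, where its probe was detected on 2 of 3 arrays. The groups did not overlap, and the log2 difference was -1.21 (SE 0.12, limma adjusted p = 0.000108). Slc22a5 was at 9.56, 9.24 and 9.28 in untreated cells and at 8.57, 8.60 and 8.27 after TGF-β1, a change of -0.88 (SE 0.12, adjusted p = 0.000841). Both genes lie on chromosome 11 with Slc22a21, another member, as the one protein-coding gene between them in RefSeq. Slc22a21 was not tested, since 1 array in all, an untreated one, detected it. The promoter windows of the neighbours are shown because both genes fell. That of Slc22a4 is at chr11:54028055-54028354 and that of Slc22a5 at chr11:53891654-53891953, both on the minus strand of GRCm38.p6.
Slc22a4: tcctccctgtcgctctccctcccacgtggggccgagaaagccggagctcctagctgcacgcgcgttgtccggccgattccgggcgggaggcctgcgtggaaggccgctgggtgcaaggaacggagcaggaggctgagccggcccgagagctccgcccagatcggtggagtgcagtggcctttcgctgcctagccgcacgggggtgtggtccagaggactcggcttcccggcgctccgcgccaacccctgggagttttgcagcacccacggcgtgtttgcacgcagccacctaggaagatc
Slc22a5: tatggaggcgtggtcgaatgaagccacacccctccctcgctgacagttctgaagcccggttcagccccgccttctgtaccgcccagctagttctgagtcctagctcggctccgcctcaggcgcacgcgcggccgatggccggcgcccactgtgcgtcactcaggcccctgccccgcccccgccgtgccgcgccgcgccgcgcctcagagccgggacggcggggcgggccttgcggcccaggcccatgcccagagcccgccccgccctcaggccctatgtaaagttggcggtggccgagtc

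Slc22a5 was measured by 3 tested probes. The probe ILMN_2834916 was at 8.55, 8.60 and 8.61 in untreated cells and at 7.79, 7.76 and 7.59 after TGF-β1, a change of -0.87 (adjusted p = 0.000148 over all probes tested with limma). ILMN_2834915, which stood for the gene, had an adjusted p of 0.00109 over all probes. ILMN_2651273 was dimmer, at 7.10, 7.34 and 7.21 against 6.83, 7.03 and 7.03, and its change of -0.25 did not pass (adjusted p = 0.0915). All 3 probes were thus lower on every TGF-β1 array than on every untreated array, and they differed in the size of the change and in the call. Slco3a1 was measured by 2 tested probes and both rose. The brightest, ILMN_2663230, was at 7.08, 7.27 and 7.46 untreated and at 8.66, 8.64 and 8.47 after TGF-β1, a log2 difference of 1.32 (SE 0.11, adjusted p = 4.56e-05 over genes). ILMN_1235735 was detected on 1 untreated array and on all 3 TGF-β1 arrays and changed by 0.76 (adjusted p = 0.00187 over all probes). The other probe of Slco3a1, ILMN_1235635, was detected on 2 untreated arrays and 1 TGF-β1 array and was not tested. Its signals were 6.69, 6.64 and 6.61 untreated and 6.25, 6.47 and 6.68 after TGF-β1, so it did not show the increase.

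**Figure D4:**
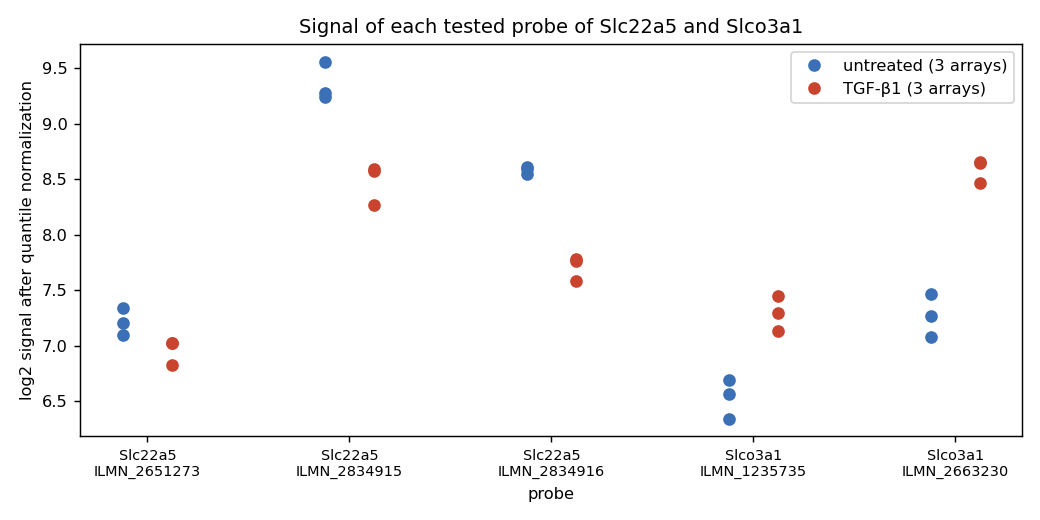
Log2 signal after quantile normalization (y axis) of each tested probe (x axis) of Slc22a5 and Slco3a1, with a point for each untreated and TGF-β1 array. All 3 probes of Slc22a5 were lower after TGF-β1, by 0.25 to 0.88 log2 units, and both probes of Slco3a1 were higher, by 0.76 and 1.32.

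The other lower Slc22 genes were Slc22a23, which has no settled substrate, and Slc22a18, an imprinted gene of an organic cation carrier. Slc22a23 was at 8.37, 8.29 and 8.31 in untreated cells and at 7.86, 7.70 and 7.53 after TGF-β1 (change -0.63, SE 0.10, adjusted p = 0.00154). Slc22a18 was at 7.02, 7.10 and 7.27 in untreated cells and at 6.52, 6.63 and 6.62 after TGF-β1, where its probe was detected on no array. It was at least 1.39-fold lower with the floor, and the change without it was -0.54 (limma adjusted p = 0.00243). Slc22a7, an organic anion carrier, was the tested Slc22 gene that did not pass (0.22, SE 0.11, adjusted p = 0.175), and passed without untreated replicate 3 (0.0273). The other 11 Slc22 genes were not tested, and 9 of them were detected on no array, among them the renal organic anion carriers Slc22a6 and Slc22a8 and the urate carrier Slc22a12.

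Slc17a4, an organic anion carrier of the intestine, was lower on every TGF-β1 array. Its log2 signals were 10.21, 10.29 and 9.81 in untreated cells and 9.04, 8.96 and 9.05 after TGF-β1. The decrease was 2.12-fold, or -1.08 in log2 units (SE 0.13, limma adjusted p = 0.000296). Slc17a5, which returns sialic acid from lysosomes, was at 7.97, 8.03 and 8.41 against 7.91, 8.04 and 7.68 and did not pass (-0.26, adjusted p = 0.194). With array brightness as a covariate it passed (adjusted p = 0.00449). Slc17a8, a vesicular glutamate carrier, did not pass (-0.08, adjusted p = 0.509). Slco1c1, a thyroid hormone carrier of the blood-brain barrier, was at 7.64, 7.62 and 7.43 in untreated cells and at 7.27, 7.34 and 7.15 after TGF-β1 (change -0.31, SE 0.095, adjusted p = 0.0344). This call was lost without TGF-β1 replicate 1 (0.0797), 2 (0.0543) or 3 (0.0986) as well as without untreated replicate 1 (0.119) or 2 (0.118). The bile acid carriers Slc10a1 and Slc10a2 and the liver carriers Slco1a1 and Slco1b2 were detected on no array. The tested Slc10 members, Slc10a3 (0.23, adjusted p = 0.0686) and Slc10a7 (0.14, adjusted p = 0.192), did not pass, although their groups did not overlap. Slc10a7 passed in the t-test with Benjamini-Hochberg adjustment (0.0471). The drug exporter Slc47a1 was detected on 1 array and Slc47a2 on none.

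Carriers of carboxylates, sulfate, peptides and fatty acids were tested in 7 of 28 genes, of which 2 were higher and 5 did not pass. At an unadjusted p under 0.05, Slc27a4 and Slc16a10 were lower in limma, and Slc16a10 in the t-test. Slc13a4, a sodium-coupled sulfate carrier, was detected on no untreated array, with signals of 6.57, 6.40 and 6.47, and on all 3 TGF-β1 arrays, at 6.92, 7.27 and 6.96. It was at least 1.34-fold higher with the floor, and the change without it was 0.57 (limma adjusted p = 0.00459). Slc27a1, which takes up long-chain fatty acids and joins them to coenzyme A, was at 7.01, 7.22 and 7.34 untreated and at 7.72, 7.73 and 7.52 after TGF-β1 (change 0.46, SE 0.11, adjusted p = 0.0120). The call was lost without TGF-β1 replicate 2 (0.0532). Its paralog Slc27a4 did not pass (-0.37, SE 0.13, adjusted p = 0.0666), but passed with scaling to a common mean (0.0413) and with array brightness (its mean raw signal) as a covariate (0.00128). In the Slc16 family of monocarboxylate carriers, the lactate exporter Slc16a3 was at 6.65, 6.85 and 6.80 in untreated cells and at 6.89, 6.70 and 6.82 after TGF-β1, with overlapping groups (0.03, adjusted p = 0.813). Slc16a13 did not pass (-0.12, adjusted p = 0.449). Slc16a10, a carrier of aromatic amino acids, did not pass (-0.22, adjusted p = 0.0900), but passed with neqc background correction (0.0391) and with array brightness as a covariate (0.0195). The probe of Slc16a1, the other major lactate carrier, was detected on no array. Slc15a4, which exports histidine and peptides from lysosomes, had a change of 0.15 that did not pass (SE 0.10, adjusted p = 0.314). Its second tested probe changed by -0.17 (adjusted p = 0.375 over all probes). The intestinal peptide carrier Slc15a1 was detected on no array.

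In all, 7 carrier genes had several tested probes, 15 in number. The probes differed in call in 1 gene, Slc22a5. They differed in sign in 3 genes, Slc15a4, Slc2a8 and Slc35a1, none of which passed on either probe. The second probe of Slc2a8 changed by 0.12 and that of Slc35a1 by 0.01 on the log2 scale.

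Genes that act on the carried molecules were taken from 6 lists of enzymes and partner proteins. Of 40 tested genes in these lists, 18 (45%) were lower and 6 (15%) were higher after TGF-β1. Over all genes tested, 18.4% were lower and 17.3% were higher. By list, the share called ran from 22.2% in nucleoside salvage to 100% of the 3 acyl-CoA synthetases, beside 35.7% over all genes. These differences were not tested. Around glucose, 5 of 8 tested genes were lower and 2 were higher. The hexokinases Hk1 and Hk2, which trap glucose in the cell, moved in opposite directions. Hk1, named after its value was seen, was at 8.83, 8.55 and 8.36 in untreated cells and at 7.91, 8.07 and 8.05 after TGF-β1 (change -0.57, SE 0.12, adjusted p = 0.00794 from limma). This call was lost in the t-test with Benjamini-Hochberg adjustment (0.0588). Hk2 was at 11.79, 11.82 and 11.77 in untreated cells and at 12.55, 12.72 and 12.39 after TGF-β1 (change 0.76, SE 0.10, adjusted p = 0.000547). The phosphofructokinase gene Pfkl changed by -0.89 (adjusted p = 0.000466), and Txnip, whose product lowers glucose uptake by removing GLUT1 from the membrane, by -0.82 (adjusted p = 0.000327). A dimmer tested probe of Pfkl had means of 7.06 untreated and 6.96 after TGF-β1, with overlapping groups. G6pc3, which releases glucose from its phosphate, was higher, with a change of 0.62 (adjusted p = 0.00380). Of 5 tested lactate partners, 4 were lower. Nptn missed the threshold (-0.25, adjusted p = 0.223) except when untreated replicate 3 was left out (0.0305). Pdk1, which holds pyruvate back from mitochondrial oxidation, changed by -0.61 (adjusted p = 0.00143). Lactate dehydrogenase A (Ldha) changed by -0.58 (adjusted p = 0.000986). Emb and Bsg, which bring monocarboxylate carriers to the membrane, were near the detection limit and were detected on no TGF-β1 array. Emb was at 6.94, 6.93 and 6.78 untreated and at 6.44, 6.43 and 6.44 after TGF-β1. Bsg was at 6.80, 6.78 and 6.82 against 6.41, 6.47 and 6.35. The dimmest detected probe of an array was at 6.61 to 6.66. With this floor Emb and Bsg were at least 1.17-fold and 1.11-fold lower. Without it their changes were -0.45 and -0.39 (limma adjusted p = 0.00330 and 0.00526).

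Enzymes that make nucleotide sugars were lower in 5 and higher in 1 of 11 tested genes. Ugp2, which makes UDP-glucose, was at 9.25, 9.32 and 9.32 in untreated cells and at 8.61, 8.58 and 8.42 after TGF-β1 (change -0.76, SE 0.085, adjusted p = 0.000214 from limma). Gmds, of GDP-fucose synthesis, changed by -0.57 (adjusted p = 0.00373) and Gne, of sialic acid synthesis, by -0.50 (adjusted p = 0.0142). Gne lost its call in the t-test with Benjamini-Hochberg adjustment (0.0777) and in limma with the replicate number as a block (0.0550). The higher gene was Gmppb, of GDP-mannose synthesis, with a change of 0.68 (adjusted p = 0.00117). Among 9 tested nucleoside salvage genes, 7 did not pass, among them Upp1 (-0.31, adjusted p = 0.0915) and Adk (0.22, adjusted p = 0.0669). Upp1 passed with array brightness as a covariate (0.00130), and Adk as the mean of its tested probes (0.0157) or with an intensity trend and robust prior (0.0425). Adk also passed in the t-test with Benjamini-Hochberg adjustment (0.0360). Thymidine kinase Tk1 was lower, at 8.24, 8.65 and 8.69 against 7.78, 7.90 and 7.77 (change -0.71, SE 0.13, adjusted p = 0.00282). A dimmer tested probe of Tk1 had means of 6.82 untreated and 6.56 after TGF-β1, with overlapping groups. Uck2, a uridine-cytidine kinase, was higher (0.36, adjusted p = 0.0470). It lost its call without untreated replicate 1 (0.0674), 2 (0.0623) or 3 (0.102), without TGF-β1 replicate 2 (0.155) or 3 (0.111), and with neqc background correction (0.0728), scaling to a common mean (0.0586), no detection filter (0.0598) or a fit over all tested probes (0.0528). All 3 tested acyl-CoA synthetases were lower. Acsl5 was at 13.20, 13.21 and 13.22 in untreated cells and at 12.09, 12.27 and 11.97 after TGF-β1 (change -1.10, SE 0.096, adjusted p = 4.92e-05). Acsl4 (-0.46, adjusted p = 0.0271) lost its call without TGF-β1 replicate 2 (0.102) as well as without untreated replicate 1 (0.0949) or 3 (0.0600). Acsl3 (-0.33, adjusted p = 0.0355) lost it without TGF-β1 replicate 1 (0.110) or 2 (0.110), as well as without untreated replicate 1 (0.0558) or 2 (0.131), and with neqc background correction (0.0597). A dimmer tested probe of Acsl4 had means of 6.94 untreated and 6.83 after TGF-β1, with overlapping groups. Of 4 tested genes of folate use, Fpgs, which adds the glutamate chain that keeps folate in the cell, was at 9.70, 9.84 and 9.77 untreated and at 10.71, 10.66 and 10.61 after TGF-β1 (change 0.89, SE 0.082, adjusted p = 6.61e-05). Shmt2, which loads folate with a carbon unit in mitochondria, was higher too (0.39, adjusted p = 0.0171). Its call was lost without TGF-β1 replicate 1 (0.0523) or 2 (0.0712) as well as without untreated replicate 1 (0.0672) or 2 (0.0671). A dimmer tested probe of Shmt2 had means of 6.86 untreated and 6.97 after TGF-β1, with overlapping groups. Slc46a1, the folate carrier that fell, and Fpgs thus changed in opposite directions.

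**Figure D5:**
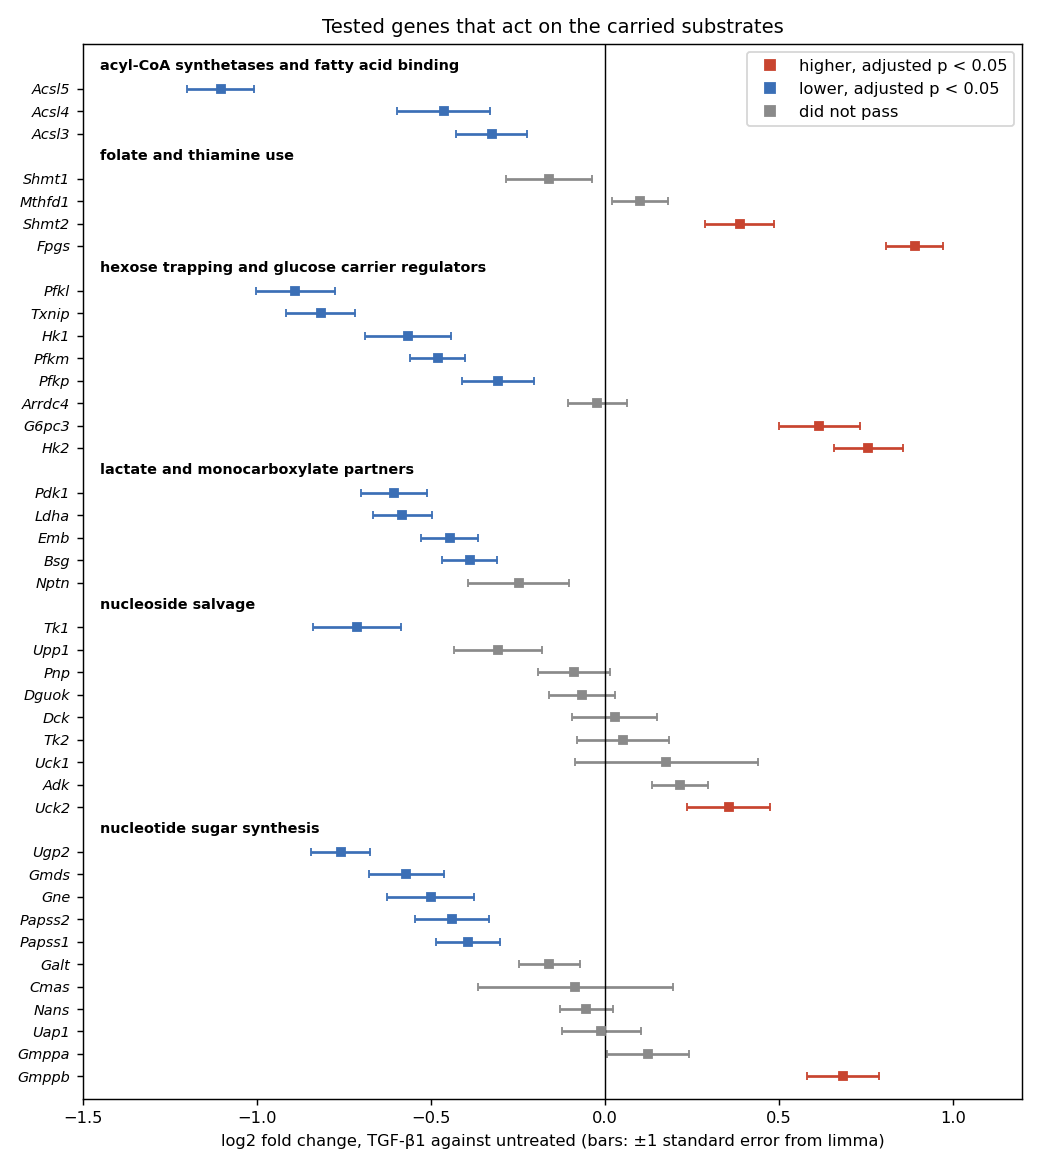
Log2 fold change after TGF-β1 (x axis, bars are 1 standard error from limma on each side) of 40 tested genes that act on the carried molecules (y axis), grouped by list, with genes past the threshold in colour. The 18 lower genes include all 3 acyl-CoA synthetases, and Hk2 (0.76) and Fpgs (0.89) are among the 6 higher ones.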

How the data were processed

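Bead signals were summarized by the authors with GenomeStudio. The deposited signal intensities are mean bead signals of 25697 probes with no background subtracted and no normalization. The deposited detection p-values compare each probe with the negative control beads of its array. The deposited normalized intensities were quantile-normalized by the authors on a linear scale, and their log2 values and the values computed here correlated at r = 0.999996 or above.

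Here the non-normalized signals were quantile-normalized and log2-transformed with limma (version 3.58.1, under R 4.3.3). Gene symbols came from the platform annotation, which gave 1 symbol for 23978 probes and none for 1719. TGF-β1 was compared with untreated by lmFit and eBayes, two-sided, and Benjamini-Hochberg adjustment covered the 7725 genes tested. Where a probe was detected on no array of a group, the fold is a lower bound, with the dimmest detected probe of an array as its floor. The adjusted p given with such a gene is that of the limma fit, which used no floor. The number of arrays, 3 per group, limits the precision. The limma fit was tested on simulated data. The study's SAM was not run. Every member past the threshold may be named, values on every array were kept for the 24 largest changes, up to 3 members per family that did not pass were named, beside those whose probes differ in call or sign (such as Slc35a1), and up to 4 genes past the threshold and 2 others per companion list, beside Hk1. Undetected Slc2, Slc5, Slc16, Slc22 and Slco members named in the text were picked after their values were seen. The members and lists were chosen with earlier results of these data known. Promoter windows are from RefSeq (GRCm38.p6), which held 100 of the 124 members by symbol. Alternatives covered background correction, normalization, filters, probe choice, test, replicate block, brightness and each array left out.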

Additional observations from a re-analysis of the deposited data

How the results depend on the processing

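The main fit called 13 lower and 6 higher carrier genes. The counts were 8 and 4 where each tested probe needed a detection p under 0.01 on 6 of 6 arrays. That filter left 29 carrier genes tested, and 36.6% of the 6367 genes it tested were called. The counts were 6 and 2 where calls also needed a 1.5-fold change, and 8 and 3 with the replicate number as a block. With these last settings all genes past the threshold numbered 1130 (14.6%) and 1733 (22.4%), beside 2755 (35.7%). The companion genes past it numbered 10 with the 1.5-fold change, beside 24. The numbers do not pair the samples. Deviations from the group means correlated with r of -0.66, 0.07 and -0.78 between same-numbered arrays, and 1 of 6 arrays correlated best with its own number. With 1 array left out, the lower count ran from 8 (without untreated replicate 2) to 13, the higher count from 3 (without TGF-β1 replicate 2) to 8, and the median from -0.15 to -0.093. The share called over all genes tested then ran from 26.3% to 36.4%. The median of -0.10 became -0.16 after neqc, -0.028 over all 124 members without a filter, and -0.15 with array brightness as a covariate, where 17 carriers were lower, 6 were higher and 3782 genes passed. The cause was not tested. None of the 19 called genes changed sign. Among genes that did not pass, the sign turned for Slc15a4 (-0.015) and Slc2a8 (0.0091) as the mean of tested probes, and for Slc29a3 (-0.063), Slc35a1 (0.14) and Slc45a4 (-0.048) with the covariate. With 1 array left out it also turned for Slc16a3 (-0.024 to 0.087), Slc29a3 (-0.035 to 0.15), Slc35a1 (-0.23 to 0.11), Slc35a4 (-0.11 to 0.028), Slc35a5 (-0.15 to 0.020) and Slc45a4 (-0.041 to 0.11). Student's t-test on the same values gave 14 lower and 8 higher genes unadjusted, and 9 and 4 after Benjamini-Hochberg adjustment. Over all genes tested, 40.9% passed unadjusted and 26.8% after adjustment. The adjusted t-test lost the calls of Slc19a2, Slc23a4, Slc27a1, Slc29a1, Slc37a1, Slc45a3 and Slco1c1, and Slc10a7 was its gain. Among the named companion genes it lost Hk1, Gne, Acsl3, Acsl4, Shmt2 and Uck2, and gained Adk. No fit with BeadChip as a block was made because BeadChip positions were not given in the sources used here. Of 4 carriers detected on no array of 1 group, the fold has only a lower bound.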
